A study of Arabidopsis thaliana with 6 samples.

Results

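Seedlings of Arabidopsis thaliana Col-0 expressing SUB1C were compared with untransformed wild type (WT) across the functional classes of the genome. SUB1C is a rice transcription factor of the ethylene response factor (ERF) family, here carrying a FLAG tag and expressed from the constitutive 35S promoter. The comparison used 4 of the 6 arrays of the study, 2 of WT and 2 of the SUB1C line, each pair from 2 biological replicates, and every probe set that is not a control. The remaining 2 arrays, of a line with FLAG-tagged rice SUB1A under the same promoter, entered the fit to estimate the spread and are given beside SUB1C only where named. All groups were whole seedlings aged 7 days, on agar with 1% sucrose at 23 °C under 16 h of light and 8 h of dark, harvested at midday without further treatment. The labels give neither an empty-vector line nor the number of independent transformants, so a difference from WT cannot be told apart from other differences between 1 line and its parent.

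ERF factors bind promoter elements of stress and hormone genes. SUB1C stands beside SUB1A at a rice locus known for tolerance of flooding, where growth and the use of carbohydrate reserves are regulated. In Arabidopsis seedlings, wall-loosening proteins act in elongating cells and root hairs, chloroplast genes supply parts of the photosynthetic complexes and of the plastid's own ribosome and RNA polymerase, and starch is made by day and broken down at night. The arrays measure whole seedlings, so fewer cells of a type and less RNA per cell cannot be told apart in any of these classes.

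Values are log2 levels on ATH1 arrays. Changes are SUB1C means minus WT means, each with its standard error (SE) from limma and n = 2 arrays a group. A gene "rose" or "fell" if its adjusted p was under 0.05 by limma with Benjamini-Hochberg adjustment over 22746 probe sets. In that fit 1071 probe sets (4.71%) were called, 645 higher (2.84%) and 426 lower (1.87%). Probe sets with 1 listed gene covered 13350 genes. Of these genes 564 were called (4.22%), with 324 (2.43%) above WT and 240 (1.8%) below, and a called change of 2-fold or more was seen in 15 (0.112%). By arrangement of the arrays alone, both SUB1C arrays lay below both WT arrays for 25.5% of genes and above them for 23.9%. The replicate arrays correlated across probe sets at 0.998 in WT and 0.999 in SUB1C, and the actin control's 3' minus 5' difference, a sign of RNA integrity, was 2.43 and 2.51 in WT and 2.39 and 2.32 in SUB1C. Leaving out 1 array left between 191 and 618 probe sets called, so the arrays that end a call are named beside it.

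Most of what was called carries no gene name in the tables used here. A symbol was listed for 1552 of the 13350 genes and for 93 of the 564 called ones, and the other loci are given by locus number with no role. The gene lists held 522 distinct measured genes, in 54 lists, and 19 of these lists had fewer than 5. A gene entered a list only by a matching symbol, synonym or annotation. Family members without such a match are not counted, called genes included, so counts describe the lists and not whole families. The lists and their members were chosen with earlier results of these data known, so their counts describe and do not test. The calls of each list stand beside 2.43% higher and 1.8% lower over all genes. Calls lay nearly all in 1 direction for the cell wall lists (12 higher and 1 lower of 79 genes), for genes of the plastid genome (0 higher and 5 lower of 69) and for starch enzymes (0 higher and 4 lower of 6). The cell wall lists hold chitinase genes, whose products cut chitin of fungal walls, and CHI and ChiC are among the 12. In the lists of AP2/ERF, WRKY, NAC and bHLH factors and receptor-like kinases, which hold few of the genome's regulators, 0 of 25 genes were called, with a median change of 0.02. None of the 15 auxin response genes (median 0.01) or the 26 proteasome and ubiquitin genes (median -0.03) was called.

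**Figure D1:**
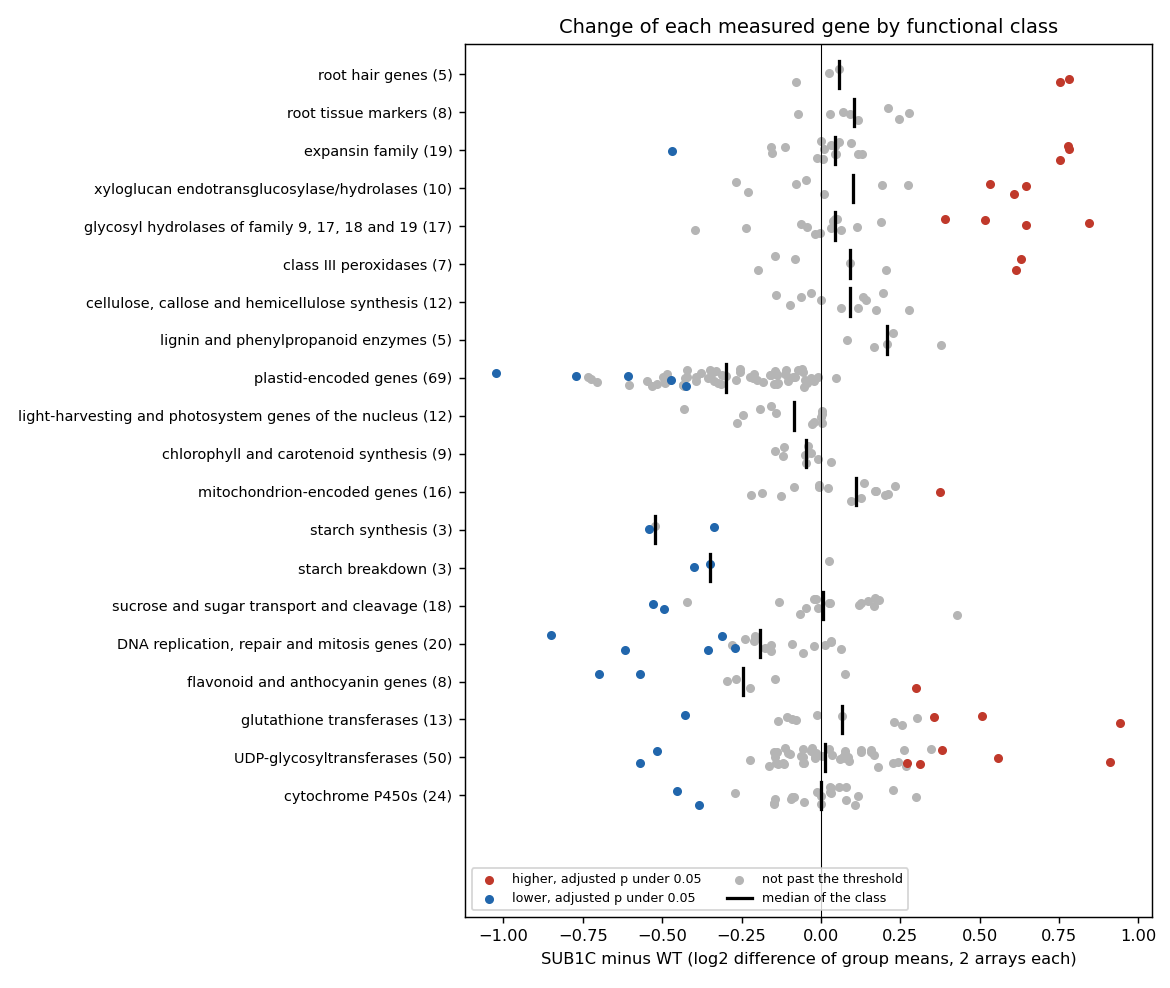
Change of every measured gene in 20 classes, as the SUB1C minus WT difference of log2 means on the horizontal axis. Each point is a gene, red points rose, blue points fell, grey points did not pass the threshold, black bars are class medians and the number of genes stands after each class name. The plastid-encoded genes lie almost wholly left of 0, whereas the expansin, xyloglucan and glycosyl hydrolase classes have most genes near 0 and a few far to the right.

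Over the 79 genes of the cell wall lists 12 rose and 1 fell, against 2.43% and 1.8% of all genes. The 12 include the chitinase genes CHI and ChiC, described below. The median change was 0.05 beside -0.00256 over all genes. Both SUB1C arrays lay above both WT arrays for 34 of the 79, or 43%, against 23.9% of all genes. Expansins loosen the wall without cutting it, and 3 of 19 rose. EXPA7, an expansin known from root hair cells, measured 7.59 and 7.42 in WT and 8.36 and 8.21 in SUB1C. Its companion EXPA18, also of root hairs, measured 7.55 and 7.43 in WT and 8.34 and 8.15 in SUB1C. The expansin-like gene EXLA1 measured 9.11 and 9.22 in WT and 9.96 and 9.92 in SUB1C. For each of these genes both SUB1C arrays were above both WT arrays. The changes were 0.78 ± 0.08 for EXPA7, 0.75 ± 0.08 for EXPA18 and 0.78 ± 0.07 for EXLA1, or 1.72-, 1.68- and 1.71-fold, with adjusted p of 0.00239, 0.00264 and 0.00154 in the limma fit, and all these calls held without any 1 array. EXPA8, another alpha-expansin, went the other way, from 11.38 and 11.18 to 10.86 and 10.76. It fell by 0.47 ± 0.08 with limma adjusted p = 0.0175, and the call held only without WT replicate 2 among the 4 fits that left out 1 array. The remaining 15 expansins lay between -0.16 and 0.13 and were not called.

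The xyloglucan endotransglucosylase/hydrolases cut and rejoin the xyloglucan chains that tether cellulose, and 3 of 10 rose. XTH19 measured 8.63 and 8.68 in WT against 9.29 and 9.31 in SUB1C. Its near relative XTH18 measured 7.40 and 7.50 against 8.03 and 8.09. XTH21 measured 5.47 and 5.41 against 6.11 and 5.83. In all of these genes the groups did not overlap. The changes were 0.65 ± 0.06, 0.61 ± 0.07 and 0.53 ± 0.09, with limma adjusted p of 0.00179, 0.00338 and 0.0184. The XTH21 call ended without WT replicate 1, without WT replicate 2 or without SUB1C replicate 1 (adjusted p up to 0.122), and the others held in each of the 4 fits. XTH18 and XTH19 are close in sequence, and cross-hybridisation between their probe sets was not tested. The other 7 members ranged from -0.27 (XTH32) to 0.27 (XTH33), and XTH26, known from root hairs, changed by -0.08.

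A few genes in the lists of wall hydrolases and peroxidases also rose. Among 17 glycosyl hydrolases of families 9, 17, 18 and 19, 4 rose and none fell. The chitinase gene CHI (AT2G43570), whose product cuts chitin of fungal walls, measured 8.37 and 8.24 in WT and 9.14 and 9.16 in SUB1C. The chitinase gene ChiC measured 8.93 and 8.87 against 9.45 and 9.39. The family 9 gene GH9C1, of the endoglucanases that act on cellulose, measured 7.18 and 6.87 against 7.79 and 7.55, and GH9B13 of the same family 8.64 and 8.47 against 9.05 and 8.84. None of these overlapped between groups. The changes were 0.85 ± 0.07 for CHI, 0.52 ± 0.08 for ChiC, 0.65 ± 0.14 for GH9C1 and 0.39 ± 0.09 for GH9B13, with limma adjusted p of 0.000871, 0.00898, 0.0361 and 0.0468. CHI held without any 1 array, ChiC ended without WT replicate 2 or SUB1C replicate 1 (up to 0.102), GH9C1 held only without WT replicate 1 (up to 0.244), and GH9B13 held in none of the 4 fits (up to 0.289). Class III peroxidases cross-link or loosen walls with hydrogen peroxide, and of the 7 matched by name 2 rose. AT5G66390 (PRX72), known for a part in lignification, changed by 0.63 ± 0.07 with limma adjusted p = 0.00315, from 9.32 and 9.29 to 10.01 and 9.85. AT2G41480 (PRX25) changed by 0.62 ± 0.10, from 6.91 and 6.90 to 7.41 and 7.63, with limma adjusted p = 0.0114 that reached 0.0718 and held only without SUB1C replicate 1.

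The lists of wall synthesis genes held no call. Of 12 genes for cellulose, callose and hemicellulose synthesis 0 were called, with a median of 0.09, and the largest change was that of CSLD2, a cellulose synthase-like gene, at 0.28 ± 0.06 with limma adjusted p = 0.0503. All 5 listed lignin and phenylpropanoid genes had both SUB1C arrays above both WT arrays, an arrangement seen for 23.9% of all genes. Their median was 0.21 and none was called. CCOAMT, which methylates lignin precursors, changed by 0.38 ± 0.12 (limma adjusted p = 0.119) and CCR2, which reduces them, by 0.23 ± 0.10 (0.236). The list of pectin methylesterases and their inhibitors held 4 genes matched by name, with 0 called and a median of -0.07.

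**Figure D2:**
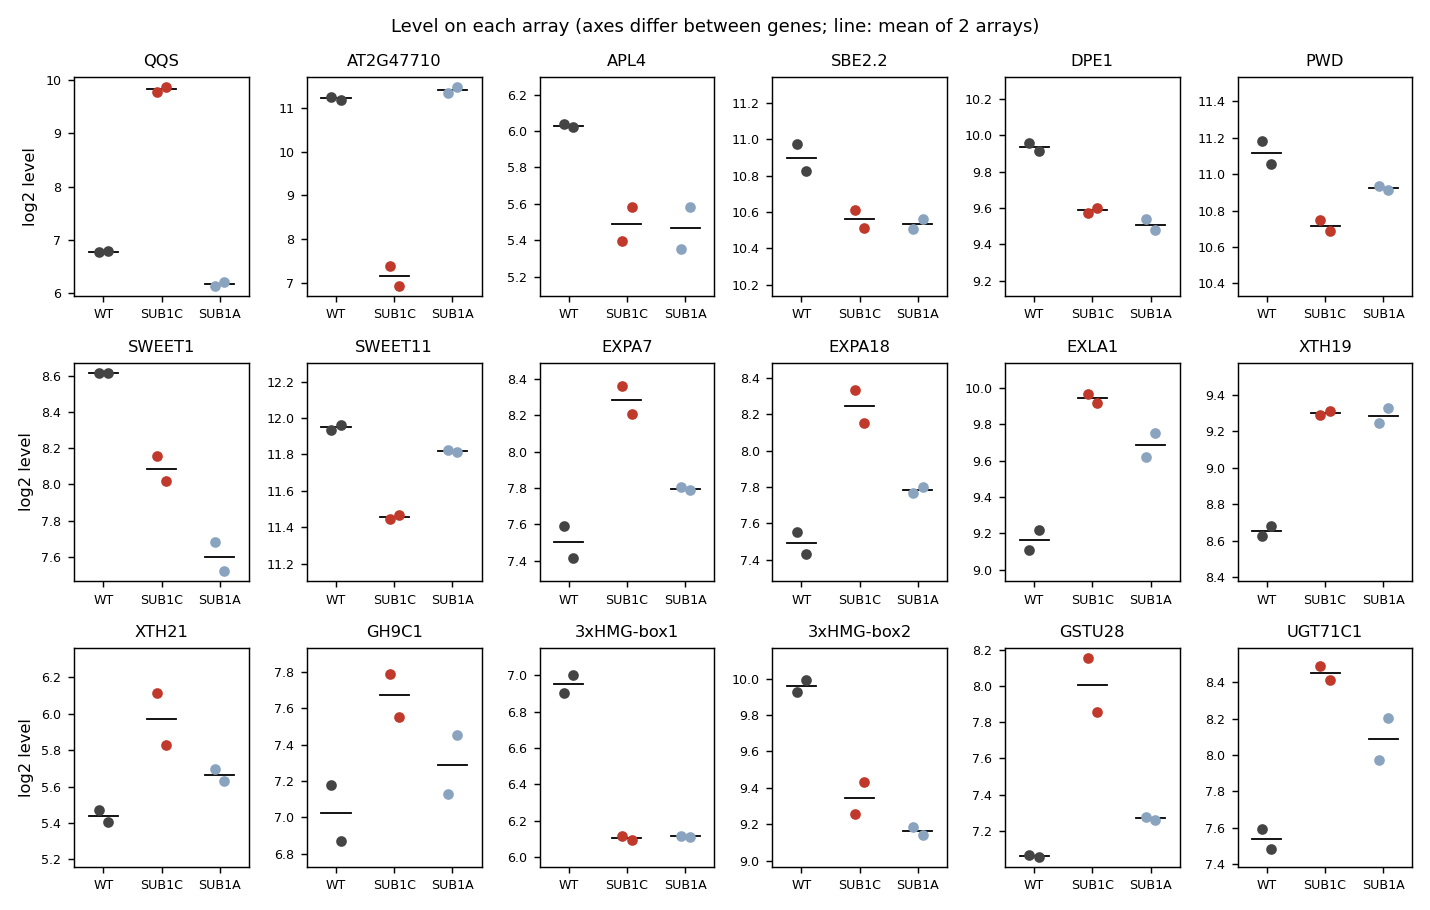
Log2 level of 18 genes on each of the 6 arrays, with points for arrays and a line for each mean of 2 arrays, and vertical axes that differ between panels. The SUB1C points lie above the WT points for QQS, the expansins, XTH19, XTH21, GH9C1, GSTU28 and UGT71C1, and below them for AT2G47710, the starch genes, the SWEET genes and the 3xHMG-box genes.

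Among the root lists, calls were those of the 2 expansins above. Of 5 measured root hair genes 2 rose, namely EXPA7 and EXPA18, and the other 3 lay between -0.08 and 0.06. The 8 root tissue genes had 0 calls and a median of 0.10. Both SUB1C arrays lay above both WT arrays for 6 of the 8, against 23.9% of all genes. PYK10, the abundant beta-glucosidase of root endoplasmic reticulum bodies, changed by 0.09 with limma adjusted p = 0.470, and JAL22, a jacalin-like lectin gene, by 0.28 ± 0.09 (adjusted p = 0.110). None of 5 nitrate, phosphate, sulphate and iron uptake genes was called. As tissue checks, 3 of the 8 fixed root markers were measured (PYK10, EXPA7 and EXPA18, from 7.42 to 14.20 over the 4 arrays) and 2 of the 8 shoot markers. The shoot markers LHCB4.2, a light-harvesting protein, and RCA, which activates Rubisco, changed by -0.14 and 0.02, neither called. The pollen marker AGL66, which seedlings should lack, was the measured one of 6 and lay between 4.65 and 4.92. The part of any shift in root share in the rises of EXPA7 and EXPA18 was not tested.

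Genes of the plastid genome were lower in SUB1C nearly throughout, though few passed the test singly. Of the 69 measured, 68 had a change under 0, against 51.1% of all genes, 48 had both SUB1C arrays below both WT arrays, against 25.5%, and 5 fell (1.8% of all genes). The median change was -0.30. The 5 that fell were petG, rpl16, rpl14, rpoC1 and rpl36. Whether neighbouring plastid genes share transcripts was not tested, so these counts and those below may not be of independent genes. The kit used here primes from poly(A), and plastid transcripts carry such tails only in part, so these levels reflect the share that was primed.

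The petG gene, for a small subunit of the cytochrome b6f complex that links the photosystems, measured 8.00 and 7.32 in WT and 6.61 and 6.66 in SUB1C. Its WT arrays differed by more than its SUB1C arrays, and the groups did not overlap. It fell by 1.02 ± 0.18, or 2.03-fold, with limma adjusted p = 0.0180, and the call ended without either SUB1C array (up to 0.146). The SUB1A line measured 0.22 above WT there, not called, and the difference between the lines was 1.24 with limma adjusted p = 0.00342. The genes rpl16, rpl14 and rpl36 encode proteins of the large ribosomal subunit. For rpl16 the levels were 11.40 and 11.29 in WT and 10.36 and 10.79 in SUB1C. For rpl14 they were 10.89 and 10.91 against 10.11 and 10.47, and for rpl36 12.496 and 12.527 against 12.0004 and 12.170. SUB1C replicate 1 was the lowest of the 4 arrays in each, and the groups did not overlap. Their changes were -0.77 ± 0.12, -0.61 ± 0.11 and -0.43 ± 0.09, with limma adjusted p of 0.0120, 0.0174 and 0.0351. In the SUB1A line they changed by -0.78, -0.75 and -0.58 against the same WT arrays, all called. The gene rpoC1, for a subunit of the plastid-encoded RNA polymerase, measured 11.38 and 11.29 against 10.77 and 10.96 and fell by 0.47 ± 0.11, with limma adjusted p = 0.0467. The calls of rpoC1 and rpl36 ended without any 1 of the 4 arrays, that of rpl14 held only without SUB1C replicate 2, and that of rpl16 ended without WT replicate 1.

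By complex, the median change was further below 0 for genes of plastid gene expression than for those of photosynthesis, a difference that was not tested. The 19 genes of the ribosome and RNA polymerase had a median of -0.43, and 4 of them fell, against 1.8% of all genes. In 17 both SUB1C arrays lay below both WT arrays, against 25.5% of all genes. The 42 genes of the photosynthetic complexes had a median of -0.22, with 1 called lower and 25 not overlapping, against the same shares. Within these, medians were -0.60 for 7 large and -0.43 for 8 small ribosomal subunit genes, -0.37 for 4 polymerase genes, -0.34 for 6 ATP synthase genes, -0.34 for 10 genes of the NADH dehydrogenase-like complex, -0.34 for 5 photosystem I genes, -0.14 for 15 photosystem II genes and -0.12 for 6 cytochrome b6f genes. The 15 photosystem II genes ran from -0.73 (psbB, a core antenna protein) to -0.03 (psbM). The 1 gene above 0 was ndhF, at 0.05. Level went with change: 32 genes with a WT mean under 12 had a median of -0.41, and 37 at or above it -0.16, and compression of bright signals was not tested.

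The size of the plastid shift depended on the arrays. Against all combinations of 1 SUB1C and 1 WT array, the median plastid difference was -0.45 for SUB1C replicate 1 minus WT replicate 1, -0.24 for SUB1C replicate 1 minus WT replicate 2, -0.21 for SUB1C replicate 2 minus WT replicate 1 and -0.12 for SUB1C replicate 2 minus WT replicate 2. It was below 0 in each, for between 57 and 68 of the 69 genes. Within groups, WT replicate 1 exceeded WT replicate 2 by a median of 0.09, and SUB1C replicate 1 differed from SUB1C replicate 2 by -0.17. The fitted median was -0.18 without WT replicate 1 and -0.18 without SUB1C replicate 1, against -0.33 and -0.36 without WT replicate 2 or SUB1C replicate 2. The number called was 1, 3, 1 and 7 without WT replicate 1, WT replicate 2, SUB1C replicate 1 and SUB1C replicate 2 in turn. In the SUB1A line, with the same WT arrays as control, the plastid median was -0.07, with 6 lower (9.61% over all genes) and 1 higher (8.14%), and 8 of the 69 genes differed between the lines (10.3%). The SUB1A median was -0.27 for the 19 genes of the ribosome and RNA polymerase, with 6 lower. It was -0.03 for the 42 genes of the photosynthetic complexes, with 0 lower.

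**Figure D3:**
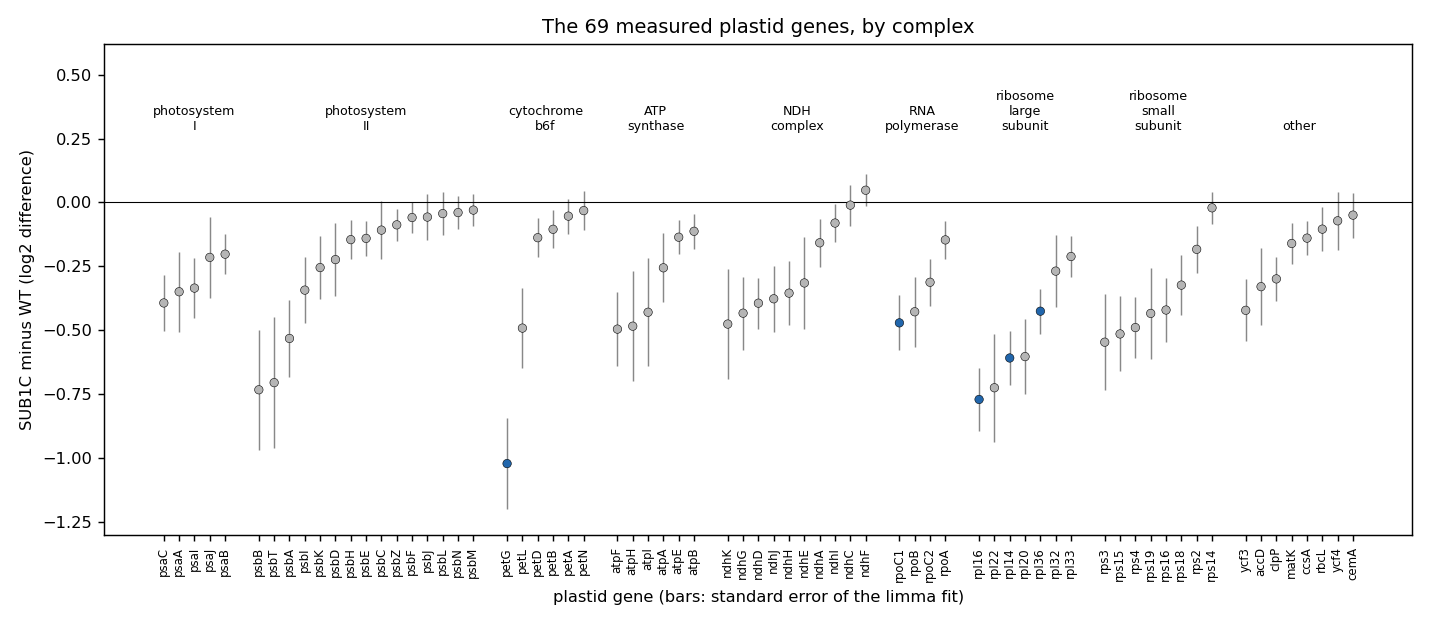
SUB1C minus WT change of each of the 69 measured plastid genes, grouped by complex, with bars for the SE of the fit and blue points for the 5 that fell. All but ndhF lie below 0, and the large ribosomal subunit genes and petG reach furthest down.

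Nuclear genes of the chloroplast had median changes nearer to 0, and genes of the mitochondrial genome a median above 0. Of 12 nuclear genes for light harvesting, the photosystems and their partners 0 were called, and the median was -0.09. Both SUB1C arrays lay below both WT arrays for 7 of the 12, against 25.5% of all genes. LHCB4.3, a minor light-harvesting protein, gave the largest value at -0.43 ± 0.11 (limma adjusted p = 0.0668). The 9 genes of chlorophyll and carotenoid synthesis had a median of -0.05 with 0 called, and the 3 Calvin cycle genes -0.11 with 0 called. Cpn60beta4, a subunit of the chaperonin that folds plastid proteins, fell by 0.30 ± 0.06 (limma adjusted p = 0.0349, in none of the 4 fits without 1 array). Among 16 mitochondrial genes the median was 0.11 and 10 were above 0. The 1 called, cox2, of cytochrome c oxidase, rose by 0.38 ± 0.08, from 6.02 and 6.03 to 6.31 and 6.49 (limma adjusted p = 0.0357, which also held in none of the 4 fits). The difference between plastid and nuclear genes was not tested, and these sets differ in level. The median WT level was 13.77 for the 12 nuclear light-harvesting and photosystem genes and 12.18 for the plastid genes. Plastid genes with a WT mean of 12 or more had a median change of -0.16.

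**Figure D4:**
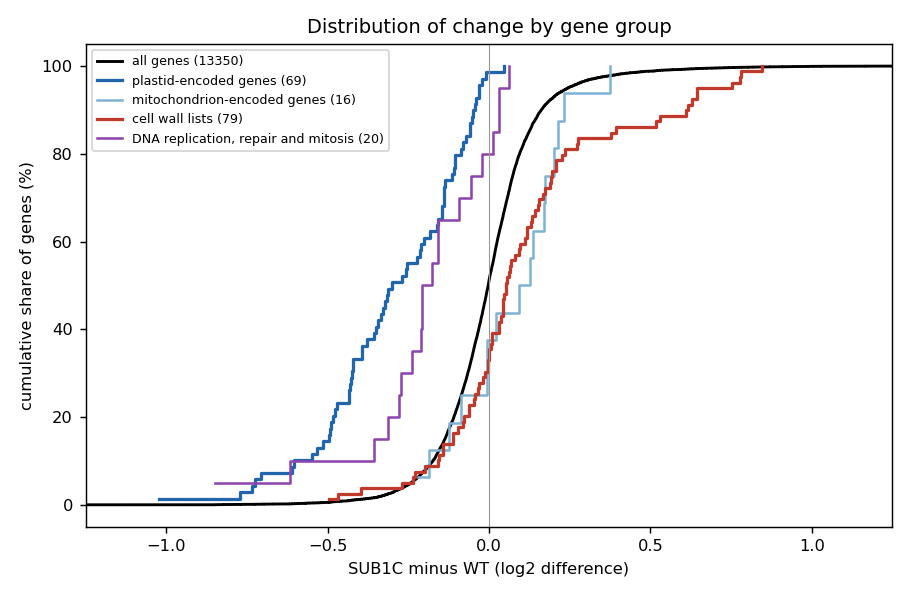
Cumulative share of genes, in percent, by SUB1C minus WT change, for all 13350 genes and 4 groups with their sizes in the key. The curve of the plastid genes lies left of that of all genes over its whole length, while the cell wall curve departs from it mainly on the right.

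Starch enzymes were lower on both sides of the pathway, among the few measured. APL4 and APL3 are large subunits of ADP-glucose pyrophosphorylase, which makes the precursor of starch. APL4 measured 6.04 and 6.02 in WT and 5.39 and 5.58 in SUB1C. It fell by 0.54 ± 0.09, or 1.46-fold, with limma adjusted p = 0.0167. APL3 measured 7.11 and 6.51 against 6.33 and 6.25, so that the WT arrays lay far apart, and its change of -0.52 ± 0.18 was not called (adjusted p = 0.155). SBE2.2, a starch branching enzyme, measured 10.97 and 10.82 against 10.61 and 10.51 and fell by 0.34 ± 0.07 (limma adjusted p = 0.0419). On the side of breakdown, PWD, the dikinase that phosphorylates glucans at the granule surface, measured 11.18 and 11.06 against 10.75 and 10.69. It fell by 0.40 ± 0.07 (limma adjusted p = 0.0161). DPE1, the plastid enzyme that recycles maltotriose, measured 9.96 and 9.91 against 9.57 and 9.60 and fell by 0.35 ± 0.06 (limma adjusted p = 0.0182). AMY1, an alpha-amylase, overlapped between groups at 5.74 and 5.63 against 5.60 and 5.83. In all, 2 of 3 synthesis genes and 2 of 3 breakdown genes fell, with medians of -0.52 and -0.35, and the synthesis median was -0.26 without WT replicate 1.

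The starch calls changed with the arrays. Without any 1 array SBE2.2 (adjusted p up to 0.207) and DPE1 (up to 0.158) were not called, PWD was called only without WT replicate 2 and APL4 only without SUB1C replicate 2. The SUB1A line, against the same WT arrays, changed by -0.56 for APL4, -1.08 for APL3, -0.36 for SBE2.2 and -0.43 for DPE1, all called, while PWD at -0.19 was not and AMY1 rose by 0.49. QQS, an orphan gene of Arabidopsis whose loss is known to raise leaf starch, went the opposite way at 6.78 and 6.79 in WT against 9.78 and 9.86 in SUB1C, a change of 3.04 ± 0.06.

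Of 18 genes for sugar transport and cleavage 2 fell, against 1.8% of all genes, with a median of 0.01. Both are among the 14 measured SWEET genes. SWEET1, a glucose carrier of the plasma membrane, measured 8.61 and 8.62 in WT and 8.16 and 8.02 in SUB1C. SWEET11, which exports sucrose for loading into the phloem, measured 11.94 and 11.96 against 11.45 and 11.47. In both genes the WT arrays were nearly equal and the SUB1C arrays lay below them. They fell by 0.53 ± 0.08 and 0.49 ± 0.06, with limma adjusted p of 0.00962 and 0.00372. The SWEET1 call ended without SUB1C replicate 2 (0.0709) and that of SWEET11 without SUB1C replicate 1 (0.0508). The lines differed at both: SWEET11 was 0.36 higher in SUB1A than in SUB1C, while the SUB1A minus SUB1C difference of SWEET1 was -0.49, each with limma adjusted p = 0.00574. SWEET2, which stores sugar in root vacuoles, measured 0.43 above WT without being called.

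Enzymes that conjugate small molecules moved in both directions, where 2.43% of all genes rose and 1.8% fell. Among 13 glutathione transferases 3 rose and 1 fell, all of the tau class (GSTU), which had 11 measured genes. GSTU28 measured 7.06 and 7.06 in WT and 8.15 and 7.86 in SUB1C, and GSTU26 measured 8.59 and 8.72 against 9.17 and 9.15. They rose by 0.94 ± 0.09 and 0.51 ± 0.07 (limma adjusted p of 0.00191 and 0.00655), and the second call ended without SUB1C replicate 1 (0.0725). The SUB1A line differed from SUB1C at both, by -0.73 and -0.56 with limma adjusted p of 0.00190 and 0.00160. GSTU23 changed by 0.36 ± 0.07 and GSTU16 by -0.43 ± 0.08 (adjusted p of 0.0289 and 0.0269), of which the first held in none of the 4 fits without 1 array and the second only without WT replicate 2. Among 50 UDP-glycosyltransferases, which attach sugars to small molecules, 5 rose and 2 fell, with a median of 0.01. UGT71C1, which glucosylates flavonoids, measured 7.59 and 7.48 in WT against 8.49 and 8.41 and rose by 0.91 ± 0.09 (limma adjusted p = 0.00167). UGT72E3 and UGT72E2, which glucosylate monolignols, rose by 0.56 ± 0.07 and 0.38 ± 0.07 (limma adjusted p of 0.00570 and 0.0217). UGT72E3 ended without SUB1C replicate 1, and UGT72E2, chosen after its values were seen, held in none of the 4 fits.

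Falls in conjugation and pigment genes came beside these rises. Calls made up 8.33% of the cytochrome P450s and 9.09% of the beta-glucosidases below, against 4.22% of all genes. UGT72B3 of the same large family fell by 0.52 ± 0.07 (limma adjusted p = 0.00563) and ended without SUB1C replicate 1 (0.0708). Of 8 flavonoid and anthocyanin genes 2 fell and 1 rose. UF3GT, an anthocyanin glycosyltransferase, measured 7.65 and 7.85 in WT against 7.25 and 7.11 and fell by 0.57 ± 0.10 (limma adjusted p = 0.0163), held only without WT replicate 1. BAN, the reductase that makes the units of condensed tannins, measured 5.41 and 5.47 against 5.70 and 5.77 and rose by 0.30 ± 0.06 (adjusted p = 0.0349, in none of the 4 fits). Among 24 cytochrome P450s 2 fell, CYP71B35 by 0.45 ± 0.08 and CYP71B36 by 0.39 ± 0.08 (limma adjusted p of 0.0154 and 0.0371, in none of the 4 fits). Of 22 beta-glucosidases, which cut glucose from small molecules, 2 fell. BGLU28 measured 6.88 and 6.18 in WT against 5.53 and 5.33 and changed by -1.10 ± 0.19 (limma adjusted p = 0.0176), and without SUB1C replicate 1 or 2 it was not called (up to 0.107).

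Genes of dividing cells lay below WT in most cases. This list of 20 DNA replication, repair and mitosis genes was chosen after their values had been seen, so its counts too describe and do not test. In it 5 fell and 0 rose, against 1.8% and 2.43% of all genes, and the median was -0.19. Both SUB1C arrays lay below both WT arrays for 15, against 25.5% of all genes. The genes 3xHMG-box1 and 3xHMG-box2 encode proteins that bind condensed chromosomes during mitosis. 3xHMG-box1 measured 6.90 and 7.00 in WT and 6.12 and 6.09 in SUB1C, and 3xHMG-box2 measured 9.93 and 9.99 against 9.26 and 9.43. They fell by 0.85 ± 0.06 and 0.62 ± 0.07 (limma adjusted p of 0.000717 and 0.00398), without overlap, and both calls held in all 4 fits without 1 array. ICU2, the catalytic subunit of DNA polymerase alpha, fell by 0.36 ± 0.07, TOPII, which untangles chromosomes, by 0.31 ± 0.07, and BUBR1, of the spindle checkpoint, by 0.27 ± 0.06 (limma adjusted p of 0.0298, 0.0486 and 0.0465). ICU2 held only without WT replicate 1, and TOPII and BUBR1 in none of the 4 fits. The histone H2B gene HTB2 fell by 0.29 ± 0.06 (adjusted p = 0.0408, in none of the 4 fits), the 1 call among 7 histone genes. In the SUB1A line, against the same WT arrays, 8 of the 20 were lower, against 9.61% of all genes. The values of 3xHMG-box1 and 3xHMG-box2 there were -0.84 and -0.80.

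Some stress and defence lists held 1 call each, and 4.22% of all genes were called. With 1 call a list, the values are those of single genes and not results about the lists. ATG8H, of the ubiquitin-like proteins that coat autophagosomes, rose by 0.51 ± 0.08 (limma adjusted p = 0.0135), from 8.63 and 8.55 to 9.16 and 9.05, the 1 call among 13 autophagy and senescence genes. AT2G46140 (LEA27), of the late embryogenesis abundant proteins, rose by 0.55 ± 0.09 (adjusted p = 0.0143). It was the 1 call among the 13 listed late embryogenesis and abscisic acid genes. It was also the 1 call among the 5 measured genes with an LEA symbol or synonym, and genes without such a name were not counted. PR-1-LIKE, of the pathogenesis-related proteins, rose by 0.57 ± 0.10 (adjusted p = 0.0193). All of these were higher in SUB1C than in SUB1A, with SUB1A minus SUB1C differences of -0.37, -0.46 and -0.77 and limma adjusted p of 0.0228, 0.0130 and 0.00229. ATG8H and PR-1-LIKE held only without WT replicate 1 and AT2G46140 only without SUB1C replicate 2. PDF2.1, a plant defensin, was the 1 call among 15 thionins and defensins, at -0.44 ± 0.09 (adjusted p = 0.0349, held only without SUB1C replicate 1). BCAT4, which starts the chain extension of methionine for glucosinolates, was the 1 call among 6 genes of that pathway, at -0.49 ± 0.07 (adjusted p = 0.00990, held only without WT replicate 2), with a SUB1A minus SUB1C difference of -0.53 (adjusted p = 0.00285).

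The largest changes lay mostly in loci without a symbol. The 20 largest rises ran from 0.94 to 3.04, with 18 given by locus number only. The 20 largest falls ran from 0.65 to 4.06 in size, with 15 given by locus number only. In the SUB1A line, against the same WT arrays, 13 of these rises and 17 of these falls were called in the same direction. Over all genes 8.14% were called higher and 9.61% lower in SUB1A. AT5G54370 measured 7.03 and 7.08 in WT and 8.26 and 8.47 in SUB1C, and AT2G43590 measured 10.97 and 10.86 against 12.23 and 12.16, changes of 1.31 ± 0.08 and 1.28 ± 0.07 that held in all 4 fits without 1 array. AT1G26390 and AT5G38910 had larger changes, of 1.54 ± 0.31 and 1.35 ± 0.28, with limma adjusted p of 0.0323 and 0.0330 that ended without any 1 array. Among the falls AT5G22580 measured 10.87 and 10.68 in WT and 9.83 and 10.01 in SUB1C, a change of -0.85 ± 0.09 with limma adjusted p = 0.00269. AT3G02480 was at 1.098 in SUB1C and 3.57 in SUB1A, with a limma adjusted p of the difference of 1.22e-06, while AT1G52820 was at 0.99 in SUB1C and -0.08 in SUB1A (limma adjusted p of the difference 0.00229), and its SUB1C call ended without WT replicate 1 (0.0550).

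The genes beside the largest fall were examined in chromosome order. AT2G47710 itself measured 11.26 and 11.17 in WT and 7.38 and 6.94 in SUB1C. The 10 nearest measured genes, 5 on each side by the RefSeq annotation of TAIR10.1, had a median of -0.15. Of them 8 were below 0, against 51.1% of all genes, and 2 fell, against 1.8% of all genes. These were AT2G47690, at 8.60 and 8.59 in WT against 8.27 and 8.28, and AT2G47680, at 6.59 and 6.76 against 6.37 and 6.36, the nearest measured genes on 1 side. They changed by -0.32 ± 0.06 and -0.31 ± 0.07 (limma adjusted p of 0.0222 and 0.0479), and the first call held in none of the 4 fits without 1 array, the second only without WT replicate 1. On the other side GH3.9, which conjugates auxin to amino acids, changed by -0.33 ± 0.09 without being called (adjusted p = 0.0769). The SUB1A line differed from SUB1C at AT2G47690 by 0.40 (limma adjusted p = 0.00397), and AT2G47710 there was at 0.19 against WT. Around QQS none of the 10 nearest measured genes was called, their changes lay between -0.15 and 0.17, and their WT means between 4.15 and 5.63 were near the lowest values of the arrays. Calls were spread evenly over the nuclear chromosomes, at 4.08% to 4.43% of the measured genes of each, and reached 7.25% on the plastid genome.

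**Figure D5:**
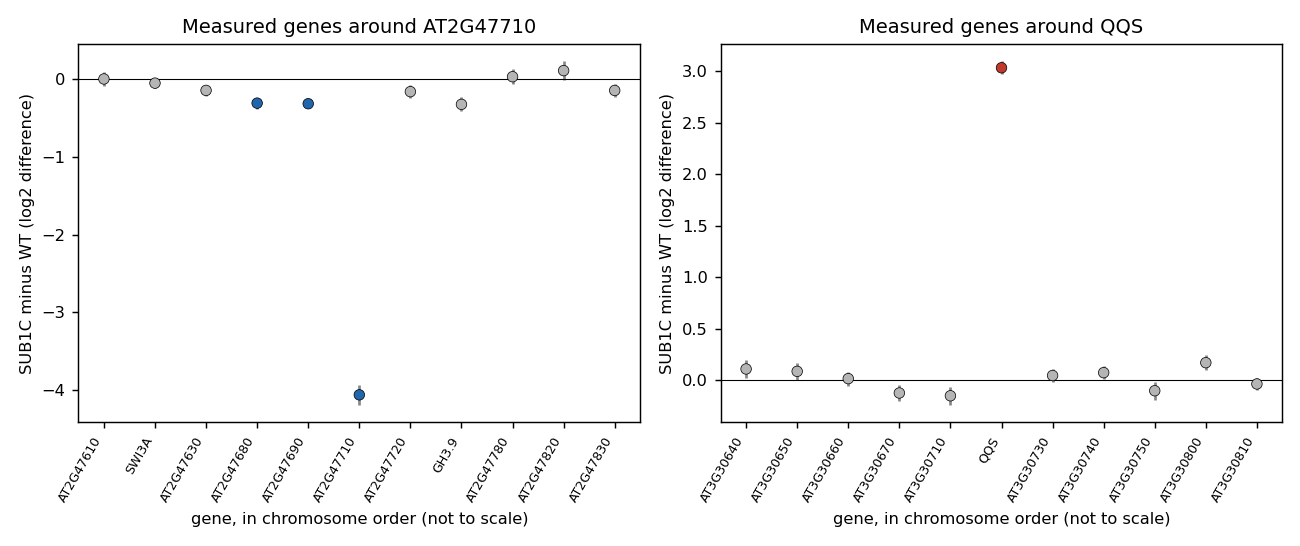
SUB1C minus WT change of the measured genes around AT2G47710 (left) and QQS (right), in chromosome order and not to scale, with bars for the SE and coloured points for called genes. AT2G47710 stands at -4.06 with 2 small called falls beside it, and QQS stands alone at 3.04.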

How the data were processed

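RNA from WT, SUB1A and SUB1C seedlings, 2 arrays each, had been hybridised to ATH1 arrays. The deposited values are log2 summaries from RMA, run by the authors according to the submitters' processing notes (version not given in the sources used here). Of 22810 probe sets 64 controls were left out. The probe table gave 13513 of the rest a single gene, 503 several and 8730 none, and 13436 of the first matched RefSeq TAIR10.1 by gene ID. Groups came from the sample labels. The functions lmFit and eBayes of limma 3.58.1 (R 4.3.3) were run over all 6 arrays (3 residual and 5.37 prior degrees of freedom), two-sided, with Benjamini-Hochberg adjustment over 22746 probe sets. The fit was checked on simulated data. P-values measure the spread between these replicates, whose number limits the precision.

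The brightest probe set stood for a gene. Members and lists were chosen with earlier results of these data known. Lists joined genes by symbol, synonym or annotation, and 44 false matches were removed. Named genes were the 20 largest rises and falls without overlap, up to 4 called genes a list or otherwise up to 2, genes fixed by name, and 5 measured neighbours each side. UGT72E2, rpl36, BUBR1 and the genes of the closing observations were named after their values were seen. Same-numbered replicates deviated together at -0.01, 0.04 and 0.02 and were not treated as pairs. Alternatives were a replicate block, 4 arrays, repeated normalization, centring, filters, other priors, array weights, thresholds and leaving out each array. The probe sequences and promoters were not used here.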

Additional observations from a re-analysis of the deposited data

Results flagged for a closer look

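Of the called genes with a symbol and the genes named by rule, 4 moved against WT in opposite directions in the SUB1C and SUB1A lines, each called in both, with a called difference between the lines in limma with Benjamini-Hochberg adjustment. The lines share their WT arrays. QQS was 3.04 above WT in SUB1C and -0.61 in SUB1A, a SUB1A minus SUB1C difference of -3.64 (adjusted p = 8.95e-08). OSM34, an osmotin-like gene named after its values were seen, was 0.66 in SUB1C and -0.52 in SUB1A, a difference of -1.17 (adjusted p = 1.91e-05). GH9B13 was 0.39 in SUB1C and -0.34 in SUB1A, a difference of -0.73 (adjusted p = 0.00161). BGLU44, a beta-glucosidase gene, was -0.34 in SUB1C and 0.33 in SUB1A, a difference of 0.67 (adjusted p = 0.000944). The SUB1C calls of QQS and OSM34 held without any 1 array, that of BGLU44 held only without WT replicate 1, and that of GH9B13 in none of the 4 fits.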

How the results depend on the processing

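No called change of a named gene changed sign under the alternatives run, nor did the median of the plastid, nuclear photosystem, starch, expansin, xyloglucan, peroxidase or root hair genes. The replicate block, the fit of 4 arrays, other priors and thresholds leave each change as it is, so they could not change a sign. Leaving out 1 array could not do so either where the SUB1C and WT arrays do not overlap. Of 131 called named genes 37 stayed called in all 4 fits without 1 array and 45 in none. Without 1 array, called probe sets numbered 191 to 618, rises 150 to 404, plastid genes 1 to 7, peroxidases 1 to 2, starch synthesis genes 0 to 1 and starch breakdown genes 0 to 1, and medians ran from -0.36 to -0.18 for plastid genes, from -0.55 to -0.26 for starch synthesis genes, from -0.12 to -0.0586 for nuclear photosystem genes, from 0.0252 to 0.19 for root hair genes and from 0.11 to 0.19 for xyloglucan genes. Called probe sets and rises were 588 and 335 over single-gene probe sets, 296 and 229 at adjusted p 0.01, 2083 and 1091 at 0.10, and 269 and 215 with a 1.5-fold minimum. Plastid calls were 11 with the replicate block, 10 with a trended prior, 0 at 0.01, 16 at 0.10 and 3 with 1.5-fold. Nuclear photosystem calls were 1 with the replicate block, 1 with a trended prior and 1 at 0.10, and their median was -0.0575 with normalization repeated and -0.0641 with centring. Starch synthesis calls were 1 with only 4 arrays, 1 with centring, 0 at 0.01 and 0 with 1.5-fold, and starch breakdown calls 0 at 0.01 and 0 with 1.5-fold. Peroxidase calls were 1 at 0.01 and xyloglucan calls 5 at 0.10. The xyloglucan median was 0.0864 with normalization repeated, 0.12 with centring and 0.19 with a mean level of at least 5, where the root hair median was 0.40. Median centring moved the share of rises among calls from 60.2% to 70.2%. The cause of these shifts was not tested, apart from fewer arrays or genes by construction. With 2 arrays a group, changes under about the size of those called can be missed, and dim genes are compressed.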

Other observations

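The following called genes lie outside the lists and were named after their values were seen. RALFL27, of the rapid alkalinization factor peptides, measured 6.60 and 6.47 in WT and 7.53 and 7.36 in SUB1C, a change of 0.91 ± 0.08 (limma adjusted p = 0.00151). Of 11 measured genes of that family 2 rose and 9 lay above 0, with a median of 0.14. HRGP1, a hydroxyproline-rich glycoprotein gene, measured 9.29 and 8.86 against 9.81 and 9.86, a change of 0.75 ± 0.14 (adjusted p = 0.0208) that held only without WT replicate 1. SBT4.12, a subtilase, rose by 0.66 ± 0.07 (adjusted p = 0.00269) and LBD16, a regulator of lateral root initiation, by 0.52 ± 0.06 (adjusted p = 0.00404). The calls of RALFL27, SBT4.12 and LBD16 held without any 1 array. ICL, the isocitrate lyase of the glyoxylate cycle, measured 6.32 and 6.38 against 7.48 and 7.04 and rose by 0.91 ± 0.14 (adjusted p = 0.00990), ended without either WT array.

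Among the falls, CFM3A and CFM3B, of the family of chloroplast intron splicing factors, measured 8.995 and 9.071 against 8.68 and 8.71, and 7.98 and 7.95 against 7.67 and 7.61. They changed by -0.34 ± 0.06 and -0.33 ± 0.07 (limma adjusted p of 0.0209 and 0.0376), and the first call held only without WT replicate 1, the second in none of the 4 fits without 1 array. SPCH, which starts the stomatal lineage, changed by -0.33 ± 0.07 (adjusted p = 0.0328, in none of the 4 fits). Families of at least 5 measured genes with a shared symbol stem numbered 49, and 24 of them, with 5 to 23 genes each, held no call, the largest being the TBL genes with a median of 0.10.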
